A study of Mus musculus with 16 samples.

Results

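Cluster 7 is a group of 1012 cells that the authors annotated as astrocytes, out of 18203 cells in a single-cell RNA sequencing study of the injured mouse spinal cord. Its members were taken from the deposited cell table, as all cells whose cluster name starts with 7, and no value computed here was used to choose them. The same table annotates Clusters 2 and 5 as astrocytes, with 1213 and 1758 cells, so Cluster 7 held 1012 of 3983 cells with that annotation. The authors built the clusters from the expression of these same cells. For that reason every difference in genes between Cluster 7 and other cells is given below as a description, with no test.

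The study asked what the loss of Ryk, a receptor for Wnt proteins, in astrocytes does to the cells around a spinal cord lesion. Control mice carried Ryk+/+,GFAPcreERT2 and are called WT, and conditional knockout mice carried Rykfl/fl,GFAPcreERT2 and are called cKO. Mice of both genotypes thus carried the Cre recombinase under a GFAP promoter and, per the methods, received tamoxifen to switch it on. They were 8 to 10 weeks old, and were uninjured (labelled sham) or had a lesion of the cervical dorsal columns 1 d, 7 d or 14 d earlier, with 2 mice in each of 8 conditions. Each mouse gave 1 library made with 10x Genomics Chromium 3′ chemistry. In which cells the Cre acted was not measured here, and roughly equal numbers of both sexes were used, per the methods. A WT mouse at 1 d (replicate 2) had a single cell in the data and none in Cluster 7, which left 15 mice and 1 WT mouse at 1 d.

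Astrocytes clear glutamate and GABA from synapses, buffer potassium, move water at blood vessels and are coupled to each other by gap junctions. In the spinal cord, those of the gray matter enwrap synapses, and those of the white matter hold more of the filament protein GFAP. After injury they become reactive: they raise filament, protease inhibitor and matrix genes, and those nearest the lesion line up as a border around it. Signals through STAT3 and the receptors for interleukin 6 family cytokines are among the known drivers of that change.

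The libraries differed in depth, and this touches every result below. The 15 mice gave 20 to 111 cells of Cluster 7, with 27728 to 995562 unique molecular identifiers (UMIs, each a captured RNA molecule) summed over them. In 4 mice, the replicate 1 mice of both genotypes at 1 d and 7 d, the median cell of Cluster 7 had 367 to 434 UMIs, and a count of 0 allows up to 79.6 to 108 CPM (counts scaled to the library's total). In the other 11 mice the same floor of 3 counts was 3.01 to 39.1 CPM. These 4 are called the shallow mice here, and they make up 2 of the 3 mice at 1 d. For 6 mice, all of them replicate 2, the names of the cells give another condition than the sample titles and the cell table, which were followed here. Of 166 cell barcodes that occur in more than 1 library, some are in Cluster 7, where 27 cells carry one, and 3 of these barcodes are in Cluster 7 in both libraries. Animal numbers fall into a series below 10000 (6 mice, the shallow ones among them) and a series from 10000 (9 mice), and this split moves with some results.

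The astrocyte label was checked against markers. Gpc5, a heparan sulfate proteoglycan of the cell surface, was at 8986 CPM in Cluster 7 against 249 CPM in all other cells. Trpm3, a calcium-permeable channel, was at 9077 against 387 CPM, and Npas3, a transcription factor, was at 5999 against 367 CPM. Slc4a4, a sodium bicarbonate transporter, was 16.5-fold and Gja1, which encodes the gap junction protein connexin 43, 11.5-fold higher than in other cells. These 5 genes were chosen with the cluster known, so their folds describe it and test nothing. By mouse, Gpc5 ranged from 6250.0 to 10678 CPM and Trpm3 from 6218 to 10239 CPM.

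The 20 genes with the highest fold over other cells, among 5295 genes found in at least 10% of its cells, included 3 of the 24 astrocyte markers (Gpc5, Slc7a10 and Trpm3) and none of the markers listed for other cell types. Gpc5 and Trpm3 are among the 5 genes chosen with the cluster known, which leaves Slc7a10 as the marker outside those 5. The list that holds Slc7a10 was chosen with earlier results of these data known, so its place tests nothing either. Slc7a10, a transporter of small neutral amino acids such as D-serine, was 23.8-fold higher than in other cells and had a UMI in 74.6% of the cells. Gabrb1 and Gabra4, subunits of the GABA-A receptor, were 23.5-fold and 22.04-fold higher. Lgr6, a receptor for R-spondins that enhance Wnt signals, was 22.3-fold higher, and the transporter Atp13a4 was 28.0-fold higher. Many of the leading transcripts are long non-coding or unnamed genes, and Gm20713 led with 53.7-fold. Transcripts of other cell types were low in each mouse. Summed over the markers of a list, neurons were at 102 to 406 CPM (9 of 9 genes with a UMI), against 2367 CPM in the neuronal cluster, and oligodendrocytes at 1226 to 3003 CPM (8 of 8), against 38924 CPM in their own cluster. Microglia were at 26.1 to 504 CPM (9 of 9) and endothelial cells at 11.4 to 492 CPM (8 of 8), against 32989 and 16261 CPM in their own clusters. Oligodendrocyte precursors (OPCs) were at 0 to 28.0 CPM (5 of 5). The astrocyte markers summed to 47755 to 62411 CPM. Ccdc153 of the ependymal list and Pmp2 of the Schwann cell list had no UMI in Cluster 7.

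Cluster 7 also differed from the other astrocyte clusters in the make-up of its RNA. Over its cells the median was 2882 UMIs and 1467.5 genes, with 3.42% of the UMIs from mitochondrial genes. Ribosomal protein genes gave 0.759% of its UMIs, and the nuclear long non-coding RNA Malat1 was at 26859 CPM. Cells of Cluster 5 had a median of 1377 UMIs and 689 genes, with 10.7% mitochondrial and 5.87% ribosomal protein UMIs and Malat1 at 5697 CPM. Cells of Cluster 2 had 834 UMIs, 442 genes, 11.3% mitochondrial and 7.21% ribosomal protein UMIs, and Malat1 at 2998 CPM. The order held within mice: in 14 of 14 mice with at least 10 cells of both clusters, Cluster 7 had the lower mitochondrial and the lower ribosomal protein share than Cluster 5, and in 13 of 14 the higher median number of UMIs. The gap in ribosomal protein share depended on the mice. Cluster 7 stayed at 0.567% to 1.26% in all of them, whereas Cluster 5 was at 5.60% to 7.04% in the 9 mice with numbers from 10000 and at 1.00% to 2.48% in the 5 others. Across 8618 genes that share these libraries, the profile of Cluster 7 was closer in rank to OPCs (Spearman 0.680) and to the neuronal cluster (0.658) than to Cluster 5 (0.623) or Cluster 2 (0.513). Genes are not independent replicates, and depth and the amount of nuclear RNA differ between these clusters too.

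Cluster 5 is the larger astrocyte cluster, and the comparison with it shows what sets Cluster 7 apart among cells of the same annotation. Within each of the 14 mice, levels were compared as log2((CPM + 50) in Cluster 7 / (CPM + 50) in Cluster 5), which understates differences of low genes. Of 8259 genes with at least 20 CPM in either cluster, 321 (3.89%) were higher in Cluster 7 in every mouse and 178 (2.16%) were lower in every mouse. The median gene was 0.09 higher. Genes for cell adhesion and synapse organizers stood out: 12 of 24 measured members of that list were higher in every mouse and none was lower in every mouse, with a median difference of 1.86. Lsamp, an adhesion protein of the immunoglobulin family, was at 14461 ± 2531 CPM against 3624 ± 4079 CPM (SD over 14 mice), a difference of 2.84. Kirrel3 (2.87), Lrrc4c (2.74), Ctnnd2 (2.27) and Nlgn1 (2.20), which act at cell contacts and synapses, were also higher in every mouse. Cntn1, a contactin, was at 1202 ± 183 against 625 ± 203 CPM, higher in 14 of 14 mice. Nrcam, an L1 family adhesion molecule, was at 1016 ± 184 against 509.7 ± 318 CPM, and higher in 12 of 14.

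Transmitter receptors and transcription factors also had members that were higher in Cluster 7 in every mouse. In the list for handling of transmitters, 6 of 22 members were higher in every mouse, with a median of 0.76. Among them were the glutamate receptor genes Gria2 (1.5), Gria4 (1.43) and Grm3 (1.16) and the GABA-A receptor genes Gabrb1 (2.04) and Gabra2 (1.60). Glul, the glutamine synthetase of astrocytes, went the other way with −1.14, lower in 13 of 14 mice. The main glutamate transporter Slc1a2 was close to even, at 5906 ± 1010.4 against 7132 ± 2068 CPM. Of 21 measured transcription factors 9 were higher in every mouse, among them Rora (2.80), Sox6 (2.10), Rorb (1.70), Zbtb20 (1.52) and Tcf7l2 (1.62), the last a partner of beta-catenin. Sox9, a transcription factor of the astrocyte lineage, was lower in 12 of 14 mice (−0.49). In the Wnt list, Tcf7l2 and Znrf3 (1.64), an antagonist that removes Wnt receptors from the membrane, were higher in every mouse out of 27 measured, 2 genes to be read against the 3.89% of all genes. Among proteoglycan and border genes, Xylt1 (1.59) and Ndst3 (1.48), enzymes that build or modify sugar chains, were higher in every mouse out of 19. These 2 genes too are to be read against the 3.89% of all genes.

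Gfap, the filament protein of astrocytes, and 3 further reactive genes were lower than in Cluster 5. None of 23 measured reactive astrocyte genes was higher in every mouse, 4 were lower in every mouse (Gfap, S100a6, S100a10 and Cd44), where 2.16% of all genes were, and the median was −0.48. Gfap was at 585 ± 352 CPM against 1676 ± 986 CPM, lower in 14 of 14 mice by a mean of 1.45 on the log2 scale. The metabolic and calcium-binding markers Aldoc (−1.25), Ndrg2 (−0.93) and S100b (−1.34) were lower in 14, 14 and 13 of 14 mice. Fabp7, a fatty acid binding protein, and Scd2, a fatty acid desaturase, were lower in every mouse, whereas the sterol and lipid list as a whole had a median of 0.12. Across the 24 astrocyte markers the median was 0.05, with 3 higher in every mouse (Gpc5, Npas3 and Trpm3) and 3 lower in every mouse (Gfap, Aldoc and Ndrg2). The 3 higher ones are among the 5 chosen with the cluster known, and none of the other markers was higher in every mouse.

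**Figure D1:**
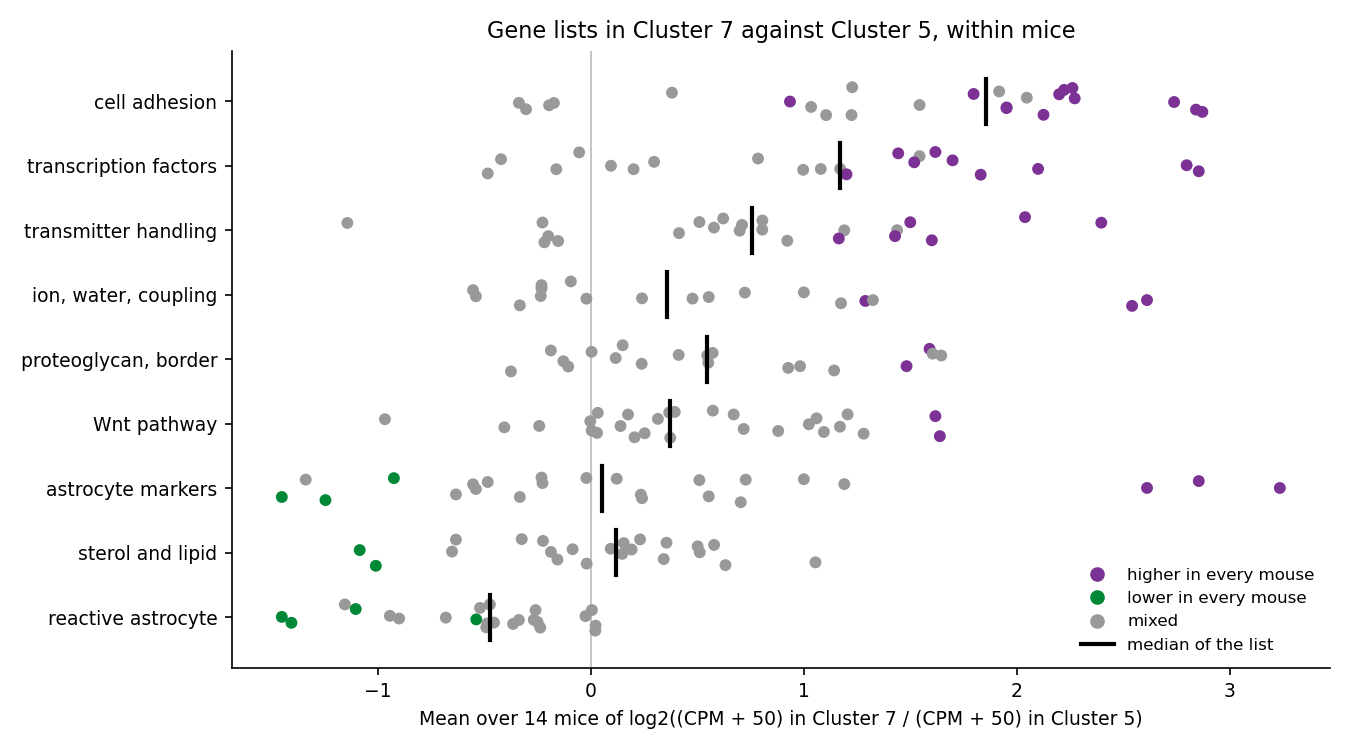
Mean over 14 mice of the log2 ratio of Cluster 7 to Cluster 5 (x axis, CPM + 50) for each measured gene of 9 lists (y axis). Points are genes, colored by whether they were higher or lower in every mouse, and the black line is the median of the list, which is 1.86 for cell adhesion and −0.48 for reactive astrocyte genes.

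The size of these differences followed the animal number series. Gpc5 differed by 4.102 to 5.03 in the 9 mice from 10000 and by 0.84 to 1.25 in the 5 mice below it. Npas3 differed by 3.44 to 4.88 and by 0.08 to 0.64, Lsamp by 3.57 to 4.37 and by 0.64 to 1.11, and Malat1 by 1.87 to 4.02 and by 0.14 to 0.71. Both series gave the same sign for these genes, but the ranges did not overlap. Gfap did not split this way, with −2.12 to −0.31 and −2.22 to −1.37. Gja1 had medians of opposite sign, 0.64 in the higher series (−0.25 to 1.39) and −0.83 in the lower one (−0.86 to −0.01), with overlap. Nrcam had a median of 1.63 in the higher series (1.13 to 1.91) and 0.09 in the lower one (−0.14 to 1.41), with overlap. The share of ribosomal protein UMIs in Cluster 5, given above, moved with the same split, and its part in these differences was not tested. Against Cluster 2, in 11 mice, 21 of 24 adhesion genes, 15 of 24 astrocyte markers and 17 of 22 transmitter genes were higher in every mouse, with medians of 2.92, 1.63 and 1.81 against 0.19 for the median gene. Of all 8697 genes compared with Cluster 2, 18.1% were higher and 3.07% lower in every mouse.

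Not all cells of Cluster 7 had a UMI of Gfap. In 702 cells thinned to 1000 UMIs each (310 cells with fewer were left out, among them all but 1 cell of each shallow mouse), 23.1% had a UMI of Gfap and 62.8% one of Slc7a10, against 50.6% and 91.2% before thinning. Of these cells 75 had both, 87 Gfap alone, 366 Slc7a10 alone and 174 neither. Microglia (Cluster 6), which should lack both genes, had a UMI of Gfap in 7.52% and of Slc7a10 in 0.760% of cells, at a median of 780.5 UMIs against 2882 in Cluster 7. After thinning, Gfap was found in 13.3% to 20% of the cells in the 4 uninjured mice, in 50% in the deep cKO mouse at 1 d, in 18.8% and 26.1% in the deep mice at 7 d, and in 16.4% to 23.9% in the 4 mice at 14 d.

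Cluster 7 was found at every time point and in both genotypes. It made up 3.76% to 9.62% of the cells of a mouse, with a median of 5.56%. Its share of all cells was 6.21% ± 0.963 (SD, n = 5) in injured WT and 5.04% ± 1.24 (n = 6) in injured cKO mice, and the difference, averaged over the time points, of −1.30 points gave p = 0.102 in an exact permutation test (two-sided, genotypes exchanged within time points, smallest possible p 0.00926). Injured mice had 5.57% ± 1.23 (n = 11) and uninjured mice 6.95% ± 2.90 (n = 4). The difference, averaged over the genotypes, was −1.33 points, with p = 0.236 in an exact permutation test within genotypes (two-sided, smallest possible p 0.0017). As a share of Clusters 2, 5 and 7, the genotypes differed by −5.34 points (exact permutation p = 0.731) and injury by −1.97 points (exact permutation p = 0.901). Adjusted over these 4 tests, the p-values were 0.407, 0.473, 0.901 and 0.901, in the order given. The injury difference in the share of all cells depended on the processing. It was −5.52 points among cells with at least 1000 UMIs (exact permutation p = 0.0170) and 0.0298 points without WT uninjured replicate 1.

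The share among astrocyte-annotated cells was split by animal number instead. It was 51.1% to 66.2% in the 6 mice below 10000 and 8.95% to 31.8% in the 9 mice from 10000, without overlap. Both series hold uninjured and injured mice of both genotypes. Within the higher series alone, the injured mice had a share 12.98 points above the uninjured ones (exact permutation p = 0.05, the smallest that design allows). Within the lower series their share was 7.86 points below (exact permutation p = 0.222). Both splits were chosen after seeing the data. The 4 shallow mice are all in the lower series, at 51.1% to 61.8%, and the 2 deep mice of that series, both uninjured, had 66.2% and 62.5%. The range of shares of all cells was 4.54% to 9.62% in the lower and 3.76% to 7.30% in the higher series, with overlap.

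**Figure D2:**
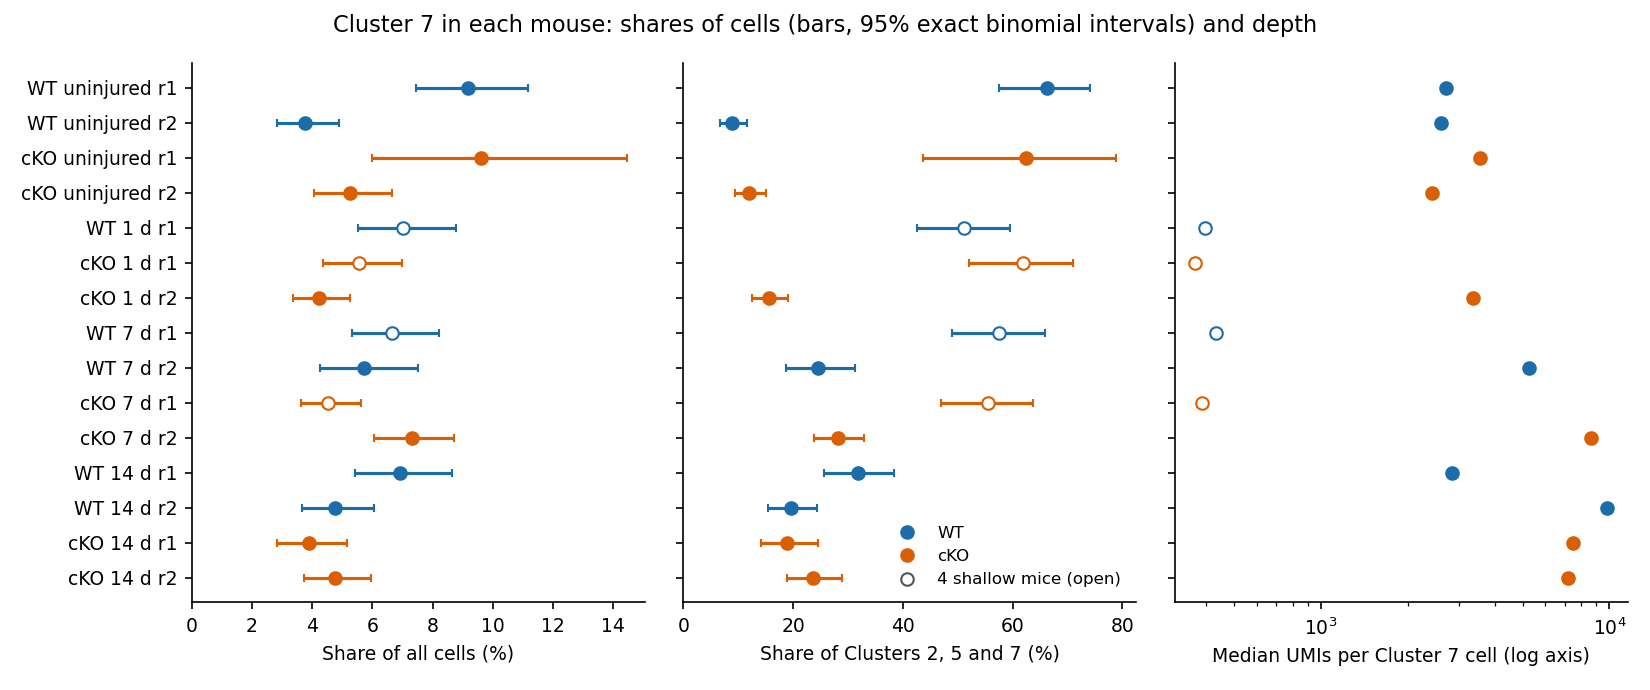
Share of Cluster 7 among all cells and among Clusters 2, 5 and 7 (percent, with 95% exact binomial intervals for counting error only) and median UMIs per Cluster 7 cell on a log axis, for each of 15 mice (r, replicate). Open points are the 4 shallow mice; the share among astrocyte-annotated cells is at least 51.1% in 6 mice and at most 31.8% in the other 9.

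Gene levels were then compared between conditions on UMIs summed per mouse over Cluster 7, with edgeR's quasi-likelihood test over 7966 genes and Benjamini-Hochberg adjustment at 0.05. A mouse was the replicate, and fold changes are log2 with their standard error (SE). At 1 d after injury, with both genotypes averaged, 14 genes rose and 1 fell, which is 0.188% of the genes tested, and 519 genes had an unadjusted p below 0.05. In 10 of the 15 the mice at 1 d and the uninjured mice did not overlap. DESeq2 called 6 genes, 5 of them among the 15. The cell table gives the replicate number as a batch, and with that number as a block edgeR called 27 genes, all of the 15 among them. The median gene was lower by 0.30 at 1 d, so changes are to be read against that shift.

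Reactive astrocyte genes led the response. Gfap, the intermediate filament protein of astrocytes (mm10 chr11:102887336-102900912, minus strand), was at 136, 217, 300.0 and 203 CPM in the uninjured mice, given as WT replicates 1 and 2 and then cKO replicates 1 and 2. The WT mouse at 1 d had 902 CPM, and the cKO mice had 938 and 1296 CPM. All 3 mice at 1 d lay above all 4 uninjured mice, and Gfap rose by 2.05 ± 0.35 (edgeR, adjusted p = 9.41e-04). Hspb1, a small heat shock protein (chr5:135887919-135889563, plus strand), was at 6.82, 0, 0 and 10.7 CPM uninjured and at 226, 252 and 251 CPM at 1 d, the latter from 7, 7 and 73 UMIs. It rose by 4.98 ± 0.75 (edgeR, adjusted p = 6.91e-05) and was back at 0 to 7.03 CPM at 7 d and 4.47 to 26.6 CPM at 14 d. Of the genes called at 1 d, Hspb1 was the one that kept its call in all 22 alternatives run for it (highest adjusted p 0.0127). Gfap lost its call in 1 of 22, without the deep cKO mouse at 1 d (adjusted p = 0.0662), and without that mouse 3 genes were called in all.

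The promoters of these genes were searched for the motifs of 2 kinds of stress signal: STAT factors bind palindromes of the form TTCNNNGAA, and heat shock factors bind GAANNTTC. Both motifs read the same on either strand. Windows of 300 bases, from 250 before to 50 after the start in RefSeq (GRCm38.p6), were found for 11 of the 14 genes that rose. TTCNNNGAA was in 1 of them, Gfap, and in 2710 of all 32544 promoters of that length (8.33%). GAANNTTC was in 1, Hspb1, and in 2567 of all promoters (7.89%). A count of 1 in 11 is near the share of all promoters for either motif, and the 2 promoters with a match are shown. In Gfap the match begins 2 bases before the start and runs across it (chr11:102897151-102897450, minus strand). That RefSeq start lies inside the gene span given above, downstream of the 5′ end of the span. In Hspb1 the matches begin 117 and 97 bases before the start (chr5:135887669-135887968, plus strand). Capitals mark the matches:
Gfap: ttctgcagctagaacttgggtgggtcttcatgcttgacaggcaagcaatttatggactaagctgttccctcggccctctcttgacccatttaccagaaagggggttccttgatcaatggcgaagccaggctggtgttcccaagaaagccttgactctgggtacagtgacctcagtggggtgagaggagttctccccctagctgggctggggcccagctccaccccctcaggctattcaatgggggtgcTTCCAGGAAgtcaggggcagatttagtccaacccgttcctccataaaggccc
Hspb1: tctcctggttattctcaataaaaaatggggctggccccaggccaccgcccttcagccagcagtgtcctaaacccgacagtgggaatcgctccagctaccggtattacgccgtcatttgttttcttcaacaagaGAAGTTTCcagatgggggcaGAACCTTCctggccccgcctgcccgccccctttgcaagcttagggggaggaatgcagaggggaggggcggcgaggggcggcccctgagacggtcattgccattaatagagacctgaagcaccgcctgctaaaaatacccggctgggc
The matches describe these promoters, and no binding was measured.

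Other reactive genes rose with Gfap at 1 d. Serpina3n, a secreted protease inhibitor, went from 17.1, 0, 13 and 0 CPM to 129, 289 and 268 CPM (WT, then both cKO mice), a rise of 4.47 ± 0.87 (edgeR, adjusted p = 0.00465). Cd44, a receptor for hyaluronan in the matrix, went from 10.2, 21.7, 26.1 and 26.7 to 193, 144 and 165 CPM, a rise of 2.91 ± 0.62 (adjusted p = 0.0173). Osmr, the receptor for oncostatin M and thus a member of the interleukin 6 receptor family, went from 0, 0, 0 and 16 to 129, 36.1 and 68.7 CPM (adjusted p = 0.0237). Each of these genes was higher in all 3 mice at 1 d than in any uninjured mouse. Timp1, an inhibitor of metalloproteases, had no UMI in the 695058 UMIs of the uninjured mice and was at 161, 36.1 and 37.8 CPM at 1 d, at least 11.3-fold higher against the floor of 3 counts over that group (adjusted p = 0.0282). Anxa2, an annexin, behaved likewise with 161, 36.1 and 34.4 CPM, at least 10.6-fold higher (adjusted p = 0.0237). In the 2 shallow mice 1 UMI is worth 32.2 and 36.1 CPM, so a value of 36.1 there stands for a single molecule.

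As a list, 6 of 20 tested reactive astrocyte genes rose at 1 d and none fell (Gfap, Serpina3n, Cd44, Timp1, Hspb1 and Osmr), where 0.188% of all genes were called. The median of the list was 2.18, or 2.30 with genes at 0 UMIs set to their bound, against −0.30 for all genes. The list has 30 members, and those not tested were too low for the filter on low genes. A gene could pass that filter by its level in 1 mouse, the size of the smallest condition. Members high only after injury could thus enter. The list was also chosen with earlier results of these data known. Its counts and medians, here and at the later times, are therefore a description. Vim, the filament partner of Gfap, was at 6.82, 14.5, 13 and 5.34 CPM uninjured and 96.6, 36.1 and 85.9 at 1 d and was not called. Lcn2, a lipocalin of reactive astrocytes, had no UMI in uninjured mice and was at 258, 36.1 and 17.2 CPM at 1 d, with too few counts to pass the filter on low genes. Stat3, the signal transducer, was at 64.8, 36.2, 91.3 and 32.1 CPM uninjured and 161, 252 and 172 CPM at 1 d, above in all 3 mice but not past the threshold (edgeR, adjusted p = 0.554).

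Outside the list, Cdh13, a cadherin without a transmembrane domain, rose from 47.7, 7.24, 13 and 69.5 to 258, 289 and 509 CPM (edgeR, adjusted p = 0.00465). Adam12, a membrane metalloprotease, rose from 6.82, 7.24, 13 and 16 to 129, 144 and 209.6 CPM, and Camkk2, a calcium-dependent kinase, from 10.2, 0, 13 and 10.7 to 193, 72.1 and 65.3 CPM. In these 3 genes the groups did not overlap. The other 4 genes that rose overlapped with the uninjured mice or rested on some of the mice: Gfra1, Igfbp7, Flnc and the mitochondrial gene mt-Nd3. The last was at 2513, 2344 and 141 CPM at 1 d, high in both shallow mice and within the uninjured range of 118 to 450.2 CPM in the deep one. Paqr7, a membrane progesterone receptor, was the only gene that fell, from 232, 478, 352 and 465 to 32.2, 252 and 196 CPM with overlap of 1 mouse.

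The homeostatic programs of Cluster 7 showed no call at 1 d. Of 22 transmitter genes none passed the test, and the median was −0.51 against −0.30 for all genes. The medians were −0.34 over 18 genes for ion and water transport and gap junctions, −0.31 over 24 adhesion genes, −0.33 over 19 proteoglycan and border genes and −0.54 over 22 sterol and lipid genes, each with no call. Gja1 was at 1115, 1702, 1004 and 1298 CPM uninjured and 1063, 649 and 1086 at 1 d (edgeR, adjusted p = 0.761). Slc7a10 was at 1316, 1166, 1865 and 1411 CPM uninjured and 1159.8, 1154 and 955 CPM at 1 d (adjusted p = 0.758). Summed markers of microglia were at 32.2 to 237 CPM at 1 d and 26.1 to 297 CPM uninjured, with overlap. Those of endothelial cells were at 108 to 290 CPM at 1 d, above 3 of the 4 uninjured mice (14.5 to 52.2 CPM) and below the fourth (321 CPM), and the median change over the 5 tested endothelial genes was 1.78. Those of red blood cells were at 0 to 161 CPM at 1 d and 10.2 to 94.2 CPM uninjured, with a median change of 1.83 over 3 genes. Those of neurons were at 129 to 406 CPM at 1 d and 102 to 310 CPM uninjured, with a median change of −2.27 over 5 genes. The 1 tested ependymal gene changed by 1.93. The part of these cells in the changes at 1 d was not tested.

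**Figure D3:**
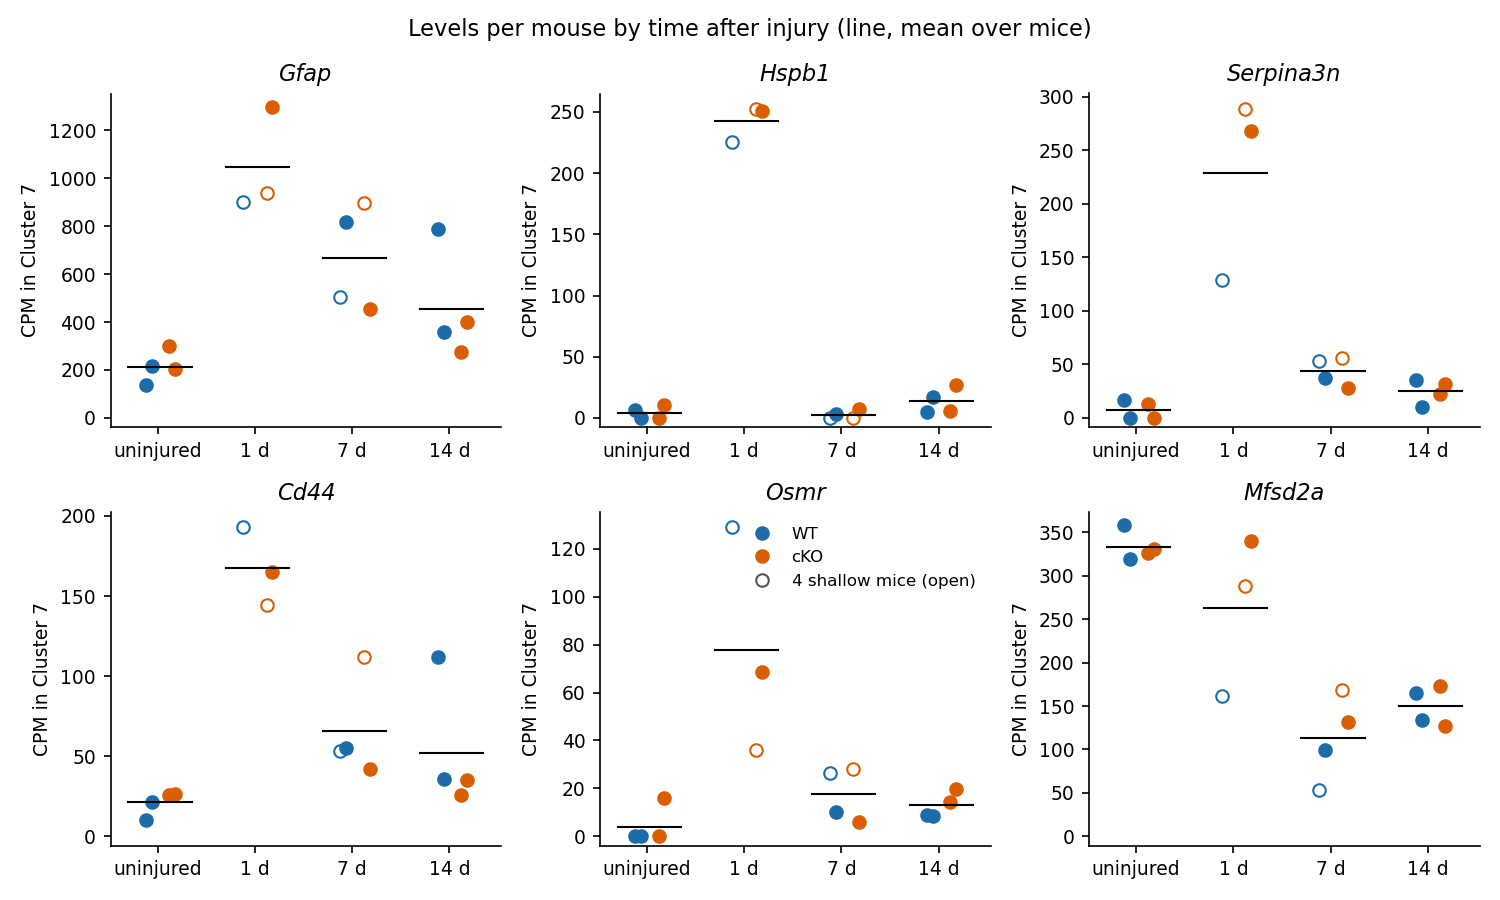
CPM in Cluster 7 per mouse (y axis, linear from 0) by time after injury (x axis) for 6 genes. Points are mice, open for the 4 shallow mice, and the line is the mean over mice; Hspb1, Serpina3n and Cd44 are highest at 1 d, and Mfsd2a is lowest at 7 d and 14 d.

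Fewer genes were called at 7 d: 1 rose and 2 fell, which is 0.0377% of those tested, with 592 at an unadjusted p below 0.05. Gfap was still high at 504, 819, 897 and 453 CPM (WT replicates 1 and 2, then cKO replicates 1 and 2), all above the uninjured mice, a rise of 1.54 ± 0.31 (edgeR, adjusted p = 0.0137). Mfsd2a, a transporter of lysophosphatidylcholine, fell from 358, 319, 326 and 331 CPM to 53.1, 99.4, 168 and 132 CPM at 7 d (−1.65 ± 0.30, adjusted p = 0.00240) without overlap. It was at 161, 289 and 340.2 CPM at 1 d, where it was not called. Cox5b, a subunit of cytochrome c oxidase, fell too, from 98.9, 275, 326 and 229.8 to 106, 54.9, 28 and 47.2 CPM, with overlap. These calls depended on single mice: none of the 3 remained without WT replicate 2 or without cKO replicate 2 at 7 d, 97 genes were called without WT uninjured replicate 1, and 30 were called with the replicate block, 24 of them lower. None of the 3 kept its call under the conditions of the cell names or without the 4 shallow mice either. Of the 20 reactive genes, Gfap alone was called, and the median was 1.17 (0.97 with genes at 0 UMIs at their bound) against 0.00 for all genes. Median changes were −1.79 over 5 endothelial and 0.83 over 6 microglial genes. Summed red blood cell markers were at 292 and 252 CPM in the shallow mice at 7 d and 0 and 59.3 CPM in the deep ones. Uninjured mice had 10.2 to 94.2 CPM. The part of these cells in the changes at 7 d was not tested.

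At 14 d, 9 genes rose and 6 fell (0.188%), with 616 at an unadjusted p below 0.05, and in 11 of them the groups did not overlap. DESeq2 called none of them, and the replicate block gave 31 calls that included all 15. Without WT uninjured replicate 1 the count was 46, and without cKO replicate 2 at 14 d it was 6. Mfsd2a stayed low at 166, 134, 173 and 127 CPM (−1.15 ± 0.26, edgeR adjusted p = 0.0304). Btbd17, a protein with a BTB domain, fell from 293, 340.5, 483 and 347 to 183, 129, 162 and 129.8 CPM (−1.24 ± 0.26, adjusted p = 0.0177). Sdf2, a protein of the endoplasmic reticulum, fell from 143, 116, 91.3 and 112 to 40.3, 65.2, 39.8 and 26.6 CPM, and Selenok, a selenoprotein of the same compartment, from 129.6, 167, 91.3 and 134 to 44.7, 73.7, 54 and 31.6 CPM. In these 4 genes each mouse at 14 d was below each uninjured mouse. Igfbp2, which binds insulin-like growth factors, and Cdkn1a, an inhibitor of the cell cycle, fell with overlap.

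Among genes that rose at 14 d, Ahnak, a large scaffold protein, went from 3.41, 0, 0 and 0 to 22.4, 39.4, 17 and 35 CPM. Kcnj3 is described with the genotypes below, since its level differed between them. Gm10800, Gm10801 and Gm26870 rose together, Gm26870 from 40.9, 138, 104 and 716 to 1060.3, 3208, 2517 and 1147 CPM. These predicted genes hold repeats, so that their reads may be shared between copies and their levels are uncertain. Gm26870 was at 104 CPM at most in the 6 mice with animal numbers below 10000 and at 138 CPM at least in the 9 from 10000, and all 4 mice at 14 d are of the higher series. With that series as a term in the fit, Gm26870 rose by 2.21 at 14 d in place of 3.38 and kept its call (edgeR, adjusted p = 6.80e-07). That term was set by the other times alone, since the mice at 14 d are of a single series. The part of the series in the rise was not tested. Gm48606, the non-coding 9530026P05Rik and 6330411D24Rik, and A2m, a protease inhibitor, made up the remaining calls. Gfap was at 787, 358, 276 and 401 CPM at 14 d and did not pass the test without the block (adjusted p = 0.131), whereas it did with the replicate block (1.13 ± 0.277, edgeR adjusted p = 0.0239). None of the 20 reactive genes rose, Igfbp2 fell, and the median of the list was 1.09 (1.06 with bounds) against 0.07 for all genes.

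**Figure D4:**
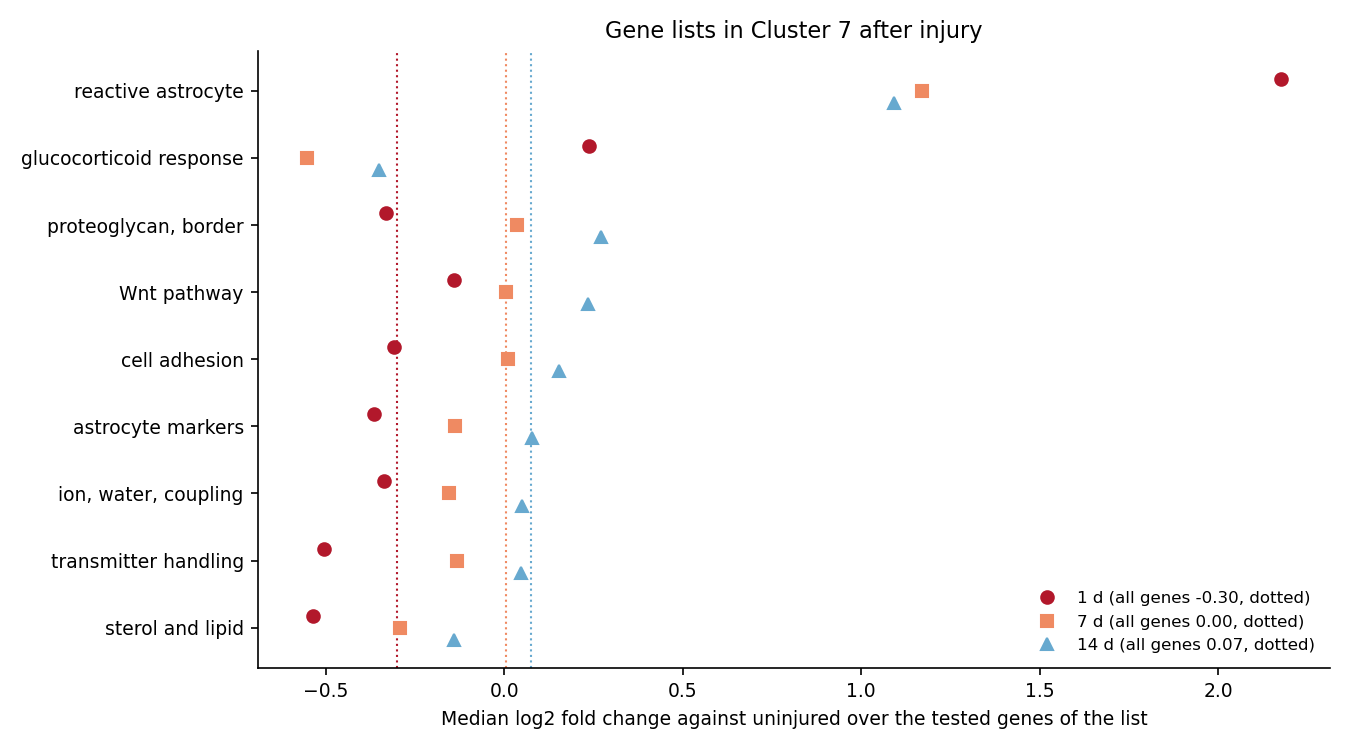
Median log2 fold change against uninjured mice (x axis) over the tested genes of 9 lists (y axis) at 1 d, 7 d and 14 d, genotypes averaged. Dotted lines are the medians of all tested genes (−0.30, 0.00 and 0.07); the reactive astrocyte list lies at 2.18, 1.17 and 1.09.

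The genotypes were compared next. Ryk itself (chr9:102834917-102908305) was at 123 and 138 CPM in WT and 78.3 and 192 CPM in cKO uninjured mice. Injured WT mice had 129 CPM at 1 d, 239 and 147 CPM at 7 d and 152 and 139 CPM at 14 d. Injured cKO mice had 36.1 and 117, then 56.1 and 138, then 165 and 153 CPM at the same times. The genotypes overlapped, with a difference of −0.11 ± 0.36 over the injury times (edgeR, adjusted p = 0.955). The cKO mice were below the WT mice at 1 d and 7 d and above them at 14 d. The cKO values of 36.1 and 56.1 CPM came from shallow mice and lie below the floors of 108 and 84.1 CPM there. The WT values of 129 CPM at 1 d and 239 CPM at 7 d are from shallow mice too. In the deep mice at 7 d, WT had 147 CPM and cKO 138 CPM. The order at 1 d and 7 d is therefore no measure of a loss of Ryk. On log2(CPM + 50) values the difference was −0.41, with p = 0.222 in an exact permutation test (two-sided, within time points). That test was chosen with the data seen. Reads from 3′ libraries lie at the end of the transcript, and where the floxed exons lie was not established here, so this level does not check the deletion.

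Between cKO and WT, edgeR called few genes: 0 genes were called in uninjured mice (0% of 7966, 308 at an unadjusted p below 0.05 and 0 with DESeq2) and 0 at 1 d (0%, 340 unadjusted and 0 with DESeq2). At 7 d 4 genes (0.0502%), at 14 d 3 genes (0.0377%) and for the mean of the 3 injury times 1 gene (0.0126%) passed, and DESeq2 called 0 in each. With the replicate block the counts were 4 uninjured, 0 at 1 d, 9 at 7 d, 9 at 14 d and 5 for the mean. Kcnj3 was called at 7 d, at 14 d and for the mean. Among genes whose groups did not overlap, those with the lowest p in uninjured mice were A630089N07Rik, Ralgps1 and Bhlhe40 on the lower and Flt1, Rgs5 and Sntb2 on the higher side (edgeR, adjusted p from 0.0896 to 0.920), of which Flt1 and Rgs5 mark vessels. At 1 d they were 4930432E11Rik, Gm37376 and Sulf1 on the lower side and Kcnj3, Lifr and Col16a1 on the higher side, all with an adjusted p of 0.864, set against a single shallow WT mouse.

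Kcnj3 (chr2:55435970-55598145, plus strand) encodes GIRK1, a subunit of inwardly rectifying potassium channels that open downstream of G protein coupled receptors. In uninjured mice it was at 17.1 and 86.9 CPM in WT and 13 and 10.7 CPM in cKO. At 1 d it had no UMI in the WT mouse, which allows up to 96.6 CPM, and was at 108 and 670.2 CPM in the cKO mice. At 7 d it was at 53.1 and 20.6 CPM in WT and 140.2 and 1138 CPM in cKO. At 14 d it was at 125 and 90.9 CPM in WT and 960.4 and 1089 CPM in cKO. The cKO mice were above the WT mice at each of the 3 times, and the gene was higher by 4.85 ± 0.70 at 7 d (edgeR, adjusted p = 1.19e-05) and by 3.28 ± 0.50 at 14 d (adjusted p = 1.14e-04). The call for the mean was lost without cKO replicate 2 at 1 d (adjusted p = 0.351). In uninjured mice the difference was −1.96 ± 1.07 (adjusted p = 1), and the change in the genotype difference with injury passed the test of the interaction (edgeR, adjusted p = 0.00506).

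The size of the difference depended on the mouse. Values of 670 CPM and above came from the 4 deep cKO mice, all with animal numbers from 10000, whereas the 2 shallow cKO mice had 3 and 5 UMIs. The call at 7 d was lost without cKO replicate 2 (a difference of 2.13 in place of 4.85, adjusted p = 0.854) and without WT replicate 2 (adjusted p = 0.844), each of which leaves a shallow mouse as the only one of its genotype. At 14 d, where all 4 mice are deep, it held when any mouse was left out and was lost with the conditions of the cell names (adjusted p = 0.0909) and with DESeq2. In the deep cKO mice the transcript was spread over the cells: 97.3% of the cells had a UMI in cKO replicate 2 at 7 d, 88.6% and 93.0% in cKO mice at 14 d and 73.1% in cKO replicate 2 at 1 d. In the shallow cKO mice it was 4.41% at 1 d and 4.94% at 7 d. In WT mice the share was 20% and 19.4% at 14 d and 0% to 7.69% otherwise. Over all injured cKO mice 61.1% of Cluster 7 cells (median 4211 UMIs) had a UMI of Kcnj3 against 0.830% of microglia (median 651 UMIs). Thinned to 1000 UMIs, the share was 62.2% in cKO replicate 2 at 7 d and 47.7% and 46.5% in cKO mice at 14 d, and 7.46% and 9.84% in WT mice at 14 d.

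Summed markers of neurons, which express Kcnj3, were at 121 to 406 CPM in injured cKO and 129 to 304 CPM in injured WT mice, and those of OPCs at 0 to 28.0 and 0 to 26.8 CPM. Levels in other clusters differed. In Cluster 5 it was low in both genotypes. There the median was 34.6 CPM in 6 injured cKO and 36.8 CPM in 5 injured WT mice, with 65.6 CPM as the highest value. The within-mouse log2 difference between Cluster 7 and Cluster 5 was higher by 2.59 in injured cKO than in injured WT mice, averaged over the time points. An exact permutation test of it, two-sided, gave p = 0.00926, the smallest possible, but the gene was chosen for this pattern in these mice, so that the test supports nothing and the values are a description. In Cluster 2, at low levels, Kcnj3 was at 15.8 to 102 CPM in 4 injured cKO mice (median 37.4) and 0 to 13.1 CPM in 4 injured WT mice (median 3.38), without overlap and in the same direction as in Cluster 7, while uninjured mice had 8.25 to 122 CPM. In the neuronal cluster it was at 163 to 282 CPM in injured cKO mice (median 181) and 71.1 to 661 CPM in injured WT mice (median 107), with overlap. In OPCs, which had 160 to 239 CPM when uninjured, it was at 99.1 to 1123 CPM in injured cKO mice (median 585) and 110 to 334 CPM in injured WT mice (median 147), again highest in the deep cKO mice at 7 d and 14 d. These comparisons were made because of the pattern in Cluster 7, and those in Cluster 2, neurons and OPCs were not tested.

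Aldh1l1, the folate enzyme that is used as a pan-astrocyte marker, was also high in most injured cKO mice. It was at 229 and 167 CPM in WT and 261 and 112 CPM in cKO uninjured mice. Injured WT mice had 161 CPM at 1 d, 398 and 206 CPM at 7 d and 299.8 and 187 CPM at 14 d. Injured cKO mice had 469 and 588 CPM at 1 d, 140.2 and 670.0 CPM at 7 d and 625 and 719 CPM at 14 d. The shallow cKO mouse at 7 d was below both WT mice. The difference over the injury times of 1.48 ± 0.32 missed the threshold (edgeR, adjusted p = 0.0572) and passed it with the replicate block (1.47 ± 0.303, adjusted p = 0.00325). It was higher in injured cKO than WT mice in OPCs (medians 134 and 13.7 CPM) and in the neuronal cluster (132 and 24.9 CPM), and lower in Cluster 5 (161 and 200 CPM). These medians were not tested.

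**Figure D5:**
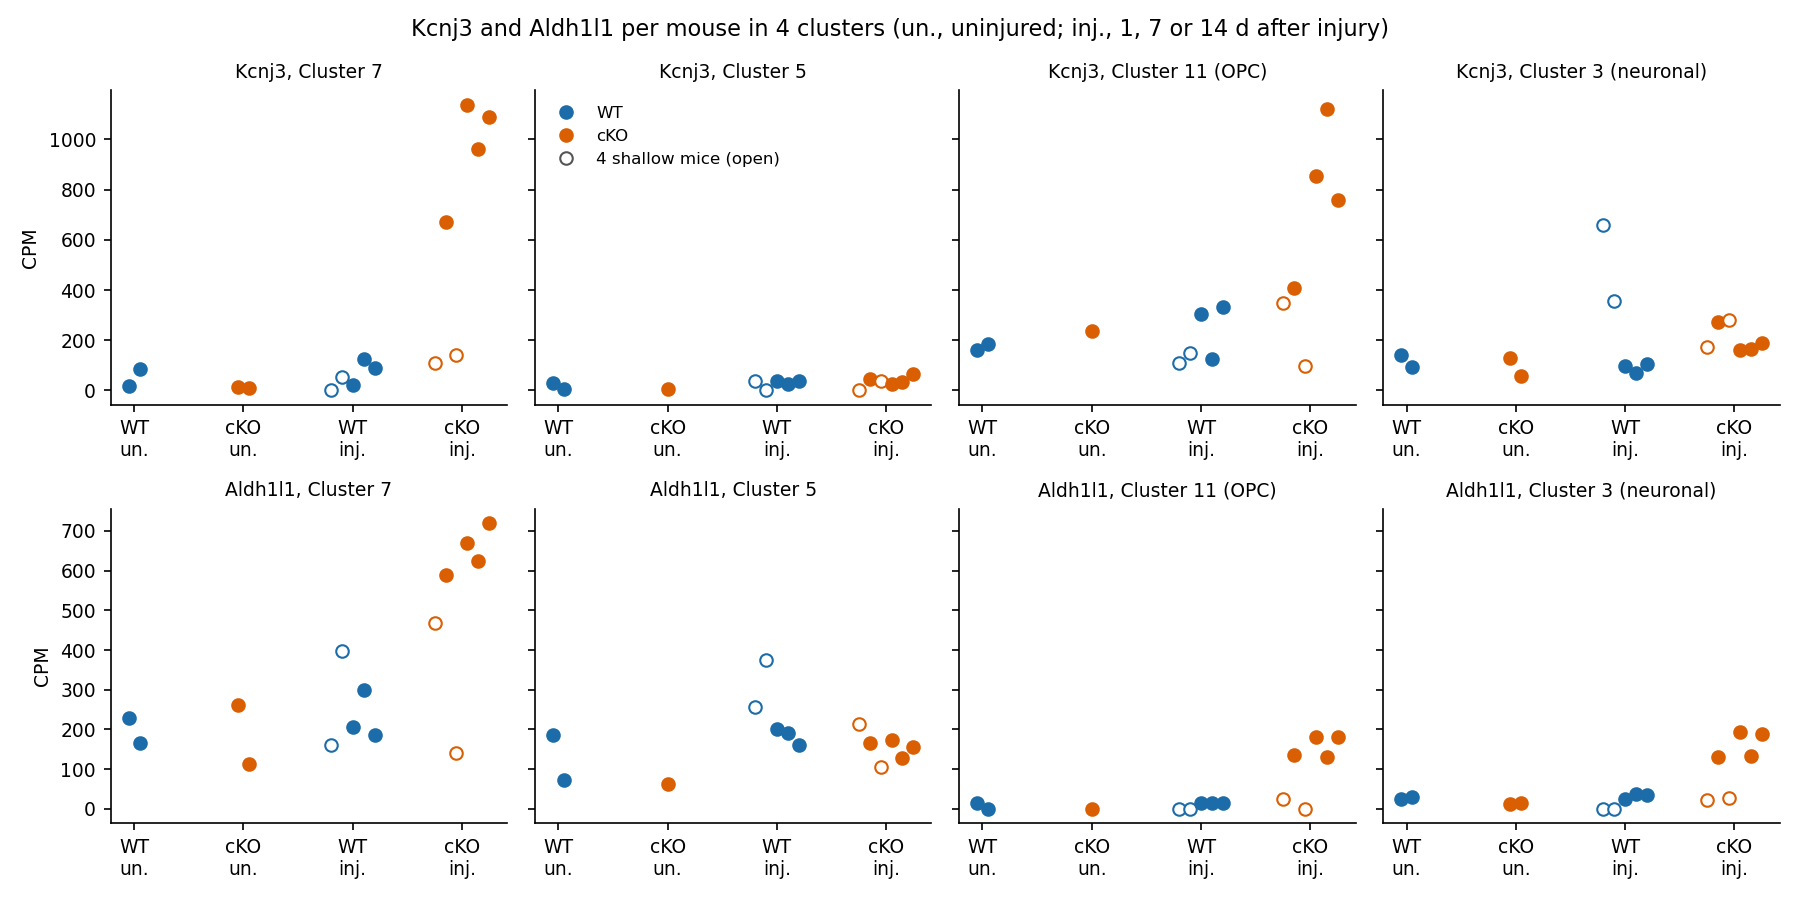
CPM of Kcnj3 (upper row) and Aldh1l1 (lower row) per mouse in Clusters 7, 5, 11 and 3, by genotype and injury (un., uninjured; inj., injured). Open points are the 4 shallow mice; in Cluster 7 the 4 deep injured cKO mice lie at 670 to 1138 CPM of Kcnj3, above all WT mice.

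The remaining calls between genotypes rested on single mice. At 7 d Cwc22, a splicing factor, Chst9, a sulfotransferase, and Gm50048 were called lower in cKO, with high values in WT replicate 2 alone, which had 1313 CPM of Cwc22 against 26.5 to 78.3 CPM in all other mice. Without that mouse none of the 3 was called. At 14 d Xist and its antisense partner Tsix were called lower in cKO, and WT replicate 2 was the only mouse of that time point with them, at 967 and 190 CPM. Xist is made in female cells, and the sex of each mouse is not in the labels.

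In the genes that the study singled out, no difference between genotypes passed edgeR's test across all genes. Nrcam was at 839 and 710.0 CPM in WT and 756 and 748 CPM in cKO uninjured mice. At 1 d the WT mouse had 1063 CPM and the cKO mice 1154 and 1096 CPM. At 7 d the WT mice had 849 and 1076 CPM and the cKO mice 1402 and 1082 CPM. At 14 d the WT mice had 926 and 1043 CPM and the cKO mice 1085 and 1147 CPM, so that the cKO mice were above the WT mice at all 3 times. The differences were 0.25 ± 0.38 at 7 d and 0.18 ± 0.36 at 14 d, both smaller than their SE, and over the injury times it was 0.24 ± 0.24 (edgeR, adjusted p = 0.870). An exact permutation test of the log2(CPM + 50) values alone, two-sided and within time points, gave a difference of 0.20 and p = 0.0278 (smallest possible p 0.00926), which did not pass when adjusted. The adjusted p was 0.111 over 4 values (Nrcam and Ryk, each in Cluster 7 and against Cluster 5) and 0.0556 over all 8 such exact permutation tests on single genes, which include Kcnj3 and Aldh1l1, picked for their pattern. Against Cluster 5 the Nrcam difference was 0.43 (exact permutation p = 0.352), and these tests were chosen with the data seen. Cntn1 was at 1069 to 1416 CPM in WT and 834 to 1486 CPM in cKO mice over all times. Of 24 tested adhesion genes, 19 proteoglycan and border genes and 30 Wnt pathway genes, none was called for the mean over injury times. Their medians were 0.14, 0.11 and −0.05 against 0.18 for all genes. Gpr37l1, a receptor for prosaposin, was at 1347 to 2022 CPM uninjured and 643 to 1235 CPM at 14 d (−0.91 ± 0.27, edgeR adjusted p = 0.228), and its ligand gene Psap was at 636 to 689 and 453 to 989 CPM. Vegfa, higher in Cluster 7 than in Cluster 5 in 14 of 14 mice (319 ± 101 against 150.4 ± 114 CPM), was not called for injury or genotype. Over the injured mice, Aqp4, the water channel of the endfeet, was at 886 to 1831 CPM in WT and 613 to 1850.3 CPM in cKO, S100b at 312 to 523 and 308 to 505 CPM, and Sox9 at 79.6 to 258 and 136 to 361 CPM. Cdh2, which encodes N-cadherin, was at 599.5 to 741 and 541 to 656 CPM. Of the enzymes that build chondroitin sulfate chains, Csgalnact1 was at 419 to 638 and 308 to 615 CPM and Chst11 at 106 to 305 and 0 to 244 CPM. Gpr37, a relative of Gpr37l1, was at 26.5 to 75.4 and 0 to 114 CPM. All these ranges overlapped between the genotypes.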

How the data were processed

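Spinal cord cells of 16 mice were profiled with 10x Genomics 3′ single-cell RNA sequencing. Per the labels and methods the authors dissociated tissue around the lesion with pronase and actinomycin D, an inhibitor of transcription, aligned reads to GRCm38 (mm10) with Cell Ranger, kept cells with more than 200 genes and less than 25% mitochondrial UMIs, and clustered them with Seurat and Harmony in R 4.1.2. Whether intronic reads were counted and how doublets were removed is not given in the sources used here, and no doublet caller was run. The deposited values are raw UMI counts per gene and cell with a table of cell annotations.

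Counts were summed per mouse over Cluster 7 and fitted with edgeR 4.0.16 (limma 3.58.1, R 4.3.3; TMM factors, filterByExpr, all 8 conditions in 1 quasi-likelihood fit, at least 10 cells per mouse), with DESeq2 1.42.0 as an alternative. Shares, CPM and figures were made with Python 3.11.15, pandas 2.3.3, numpy 2.4.6, scipy 1.17.1 and matplotlib 3.10.9. The fit was also run on simulated counts, and no result given here rests on that run. Named genes were the 5 genes furthest up and down among called genes whose mice did not overlap (or the 3 of lowest p), called members of the lists, the markers, the 20 leading genes and genes of interest in the study. The members and gene lists were chosen with earlier results of these data known.

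The deposited cell table gives the replicate number as a batch, so that the mice of a condition differ in batch. Same-numbered mice did not deviate together (21 pairs of conditions, correlation of deviations −0.0534 to 0.118, median 0.0179, 1 above 0.1), and the block was fitted as an alternative. Other alternatives were RLE size factors, no filter, the animal number series as a term, the conditions of the cell names, cells with at least 1000 UMIs, other minimum cell numbers, a pseudocount of 10 CPM, and each mouse left out. Leaving out the 4 shallow mice, asking for 50 cells per mouse and splitting the shares by animal number series were chosen after seeing the data. Gene coordinates are from GENCODE for mm10, and 488 of 489 named genes matched once. Intervals and floors cover counting error only.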

Additional observations from a re-analysis of the deposited data

Results flagged for a closer look

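In 2 genes the genotype difference after injury differed from that in uninjured mice in the test of the interaction (edgeR quasi-likelihood test, 7966 genes tested). For Kcnj3 the interaction was 8.00 ± 1.44 (log2, SE, adjusted p = 0.00506). The fitted size rests in part on the WT mouse at 1 d, which had no UMI, and is no measure of the fold. By mouse, the 6 injured cKO values of 108 to 1138 CPM and the uninjured cKO values of 13 and 10.7 CPM did not overlap, while the 5 injured WT mice (0 to 125 CPM) overlapped with the uninjured WT mice at 17.1 and 86.9 CPM.

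For Col16a1, which encodes a fibril-associated collagen, the interaction was 7.24 ± 1.49 (edgeR, adjusted p = 0.0353). This size too rests in part on the WT mouse at 1 d, which had no UMI, and is no measure of the fold. Col16a1 was at 54.6 and 36.2 CPM in uninjured WT and 0 and 5.34 CPM in uninjured cKO mice. At 1 d it was at 0 CPM in WT and 72.1 and 351 CPM in cKO, at 7 d at 0 and 37.7 CPM in WT and 0 and 46.2 CPM in cKO, and at 14 d at 44.7 and 41.2 CPM in WT and 114 and 117 CPM in cKO. The values of 0 in WT replicate 1 at 1 d, WT replicate 1 at 7 d and cKO replicate 1 at 7 d allow up to 96.6, 79.6 and 84.1 CPM, so they cannot be told apart from the levels of the deep mice at 7 d. The value of 0 in uninjured cKO replicate 1 allows up to 39.1 CPM, which is above the 36.2 CPM of an uninjured WT mouse. The genotype difference in uninjured mice, which enters the interaction, is thus not settled by that mouse.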

How the results depend on the processing

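The limits of these data are the single WT mouse at 1 d, 4 shallow mice, and animal number series and cell names that cut across the groups. The count of genes called at 1 d (15) became 6 with DESeq2, 29 with no filter, 27 with the replicate block, 27 with the animal number series as a term and 24 under the cell names' conditions, of which 11 were among the 15. At 7 d (3) it became 13 with no filter, 30 with the replicate block, 79 with the series term, 1 without the 4 shallow mice and 10 with at least 50 cells per mouse. It was 2 under the cell names, and neither these 2 nor the 1 without the shallow mice were among the 3. At 14 d (15) it became 0 with DESeq2, 31 with the replicate block, 69 with the series term and 8 without the 4 shallow mice. Between genotypes, uninjured mice (0) gave 6 with no filter, 4 with the replicate block, 3 with the series term, 22 with the cell names and 4 with at least 50 cells, and mice at 1 d (0) gave 5 with no filter and 27 with the cell names. At 7 d (4) the genotype count became 0 with DESeq2, 10 with no filter, 9 with the replicate block, 11 with the series term, 43 with the cell names and 0 with at least 50 cells. At 14 d (3) it became 0 with DESeq2, 7 with no filter, 9 with the replicate block, 11 with the series term, 30 with the cell names and 1 without the 4 shallow mice. The mean over injury times (1) became 0 with DESeq2, 4 with no filter, 5 with the replicate block, 5 with the series term, 20 with the cell names and 3 with at least 50 cells. With the block every gene of the main counts kept its call. The comparisons at 1 d could not be fitted without the 4 shallow mice, since no WT mouse is left.

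When single mice were left out, the counts after injury were 3 to 20 at 1 d (3 without cKO 1 d replicate 2), 0 to 97 at 7 d and 6 to 46 at 14 d (46 without WT uninjured replicate 1, 6 without cKO 14 d replicate 2). Between genotypes they were 0 to 28 uninjured (28 without WT uninjured replicate 2), 0 to 5 at 1 d, 0 to 9 at 7 d, 1 to 15 at 14 d and 0 to 7 for the mean (0 without cKO 1 d replicate 2).

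The share of all cells differed between genotypes by 0.368 points among cells with at least 1000 UMIs, −2.20 and 0.791 points within replicate numbers 1 and 2, which stand in for a replicate block, and 0.0346 points both without the 4 shallow mice and with animal numbers from 10000 alone. With injury it differed by −2.28 points under the cell names (exact permutation p = 0.0370) and −5.52 points with at least 1000 UMIs (exact permutation p = 0.0170), where the main value had p = 0.236, −3.64 and 0.825 points within replicate numbers 1 and 2 and 0.910 points with numbers from 10000. The share of astrocyte-annotated cells differed between genotypes by −1.39 and 3.84 points within replicate numbers 1 and 2 and 4.34 points with numbers below 10000, and with injury by −18.2 and 11.8 points within replicate numbers 1 and 2, −17.3 points under the cell names and 12.98 points with numbers from 10000. With each mouse left out these 4 differences ranged from −1.76 to −0.843, from −2.68 to 0.0298, from −13.1 to 2.38 and from −16.3 to 12.3 points. The exact permutation p for the share of all cells was 0.0179 with injury without WT uninjured replicate 2 and 0.0185 between genotypes without cKO 7 d replicate 2. The cause of these moves was not tested.

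Of the named genes, Chst9 between genotypes at 7 d was at 2.01 with the cell names, 5.51 with at least 50 cells and 5.46 without WT 7 d replicate 2, Cwc22 at 0.25, 0.84 and 0.83, and Gm50048 at 0.59, 4.83 and 4.79. Over all mice left out singly they ranged from −4.02, −5.14 and −8.35 to those last values. At 14 d Tsix was at 7.91 and Xist at 10.13 with the cell names, and both at 0 without WT 14 d replicate 2, with lowest values of −8.76 and −11.10 without WT 14 d replicate 1. Aqp4, lower in Cluster 7 than in Cluster 5, was 0.084 higher among cells with at least 1000 UMIs. Of the remaining values of named genes 988 kept direction and side of the threshold, 205 lost and 21 gained a call.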

Other observations

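Genes of the early transcriptional response and of body position were also measured in Cluster 7. Of 14 immediate early genes 6 passed the filter and none was called by edgeR at any time after injury. Their median was 1.41 at 1 d, −0.42 at 7 d and −0.93 at 14 d, and those that passed an unadjusted p below 0.05 at 1 d were 2, both higher, where 519 of all 7966 genes did, 169 of them higher. Junb, a subunit of the AP-1 factor, was at 3.41, 7.24, 0 and 10.7 CPM uninjured and 96.6, 0 and 24.1 CPM at 1 d, from few UMIs in each mouse. Of 14 genes of the glucocorticoid response 13 were tested, with a median of 0.24 at 1 d, −0.55 at 7 d and −0.35 at 14 d, and Cdkn1a was the single call, lower at 14 d, where 0.188% of all genes were called. The mice overlapped in Cdkn1a, and its call was lost in 16 of 24 alternatives.

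Of 30 Hox genes, which mark position along the body axis, 13 were tested and none was called after injury. Hoxc4 was at 68.2, 29, 26.1 and 53.4 CPM in the uninjured and 40.3, 36, 51.1 and 28.3 CPM in the 14 d mice, and Hoxa5 at 20.5, 7.24, 65.2 and 32.1 and 22.4, 17.1, 22.7 and 21.6 CPM, with overlap in both. Fgfr3, a receptor for fibroblast growth factors that astrocytes carry, was at 513 to 842 CPM over the 15 mice, and none of 15 tested genes of that pathway was called after injury.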
